A study of Mus musculus with 4 samples.

Results

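The nuclear genes for subunits of respiratory complex I were described in single-cell libraries of mouse tumours raised from MC38, a colon carcinoma cell line. The genes were chosen by symbol, as Ndufa, Ndufb, Ndufc, Ndufs or Ndufv followed by a number, and Ndufab1, while assembly factors were kept apart. This gave 40 of the 26172 genes listed in either library, and all 40 were listed for both. Each genotype had 1 cDNA library, wild-type or FOXP3 humanized, from untreated mice that received MC38 cells at 10 weeks of age and were killed on day 20. FOXP3 is the transcription factor of regulatory T (Treg) cells, and the series asks how Treg cells inside the tumour differ between the genotypes. Which stretch of the FOXP3 gene is humanized, and how many mice gave cells to a library, is not given in the sources used here. The 2 oligo libraries were not used here.

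Complex I, NADH:ubiquinone oxidoreductase, is the entry point of electrons into the mitochondrial respiratory chain. Its peripheral arm holds the flavin site that oxidises NADH, a chain of iron-sulphur clusters and the site that reduces ubiquinone, and its membrane arm pumps protons. The core of the peripheral arm is encoded in the nucleus and the core of the membrane arm in mitochondrial DNA. Accessory subunits, all nuclear, surround both arms and are needed for assembly and stability. Activated and proliferating T cells and many tumour cells depend on the respiratory chain for ATP and for regenerating NAD+.

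The subunits were described over 2 kinds of cell barcode. Deep barcodes had at least 5000 unique molecular identifiers (UMIs, each standing for 1 captured transcript) and no UMI of Cd3e, Cd3d, Cd3g or Ptprc. T barcodes had under 5000 UMIs and at least 1 UMI of a CD3 gene. The wild-type library held 6705 deep barcodes with a median of 16866 UMIs and 96 T barcodes with a median of 1700.5. The humanized library held 9671 deep barcodes with a median of 12522 UMIs and 155 T barcodes with a median of 1587. A further 890 and 1261 barcodes were in neither class. The labels call the cells immune cells, but the 10 other T cell markers summed to only 2.90 and 2.92 CPM (the UMIs of a gene scaled to 1000000 UMIs of the class) in wild-type and humanized deep barcodes, against 6137 and 4751 CPM in T barcodes. Myeloid markers summed to 8.69 and 5.21 CPM in deep barcodes, so most barcodes lacked leukocyte transcripts. In T barcodes, 8 of the 10 myeloid markers were at 0 in both libraries and the list summed to 162 and 150 CPM, from Cd74 and Fcer1g. Fibroblast markers reached 116 and 130 CPM in deep barcodes, and B cell, endothelial and erythroid lists each stayed below 2 CPM there. In T barcodes the endothelial list summed to 135 and 53.6 CPM, with Cdh5 and Kdr at 0. Of the 15 genes taken as typical of the tumour side, 13 wild-type and 12 humanized had a UMI in T barcodes, with Krt8 and Krt18 at 0, and the summed level was 37.6% and 29.5% of that in deep barcodes. Over Cald1, Cav1, Tpm1, Timp1 and Axl alone, it was 16.3% and 21.3%. The libraries shared 1551 cell names, but these are running labels, so they cannot show shared cells.

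Promoters of 4 subunits are shown because these genes stood at the ends of the comparisons that follow: Ndufa3 as the subunit highest in T relative to deep barcodes in both libraries, Ndufs5 as one of the lowest, and Ndufb1 and Ndufv1 as the lowest and the highest subunit in humanized over wild-type deep barcodes. Each sequence is the 250 bases upstream of the RefSeq start, 5′ to 3′ on the strand of the gene, in GRCm38.p6. The windows are chr7:3617123-3617372 on the plus strand for Ndufa3, chr4:123718187-123718436 on the minus strand for Ndufs5, chr12:101975739-101975988 on the minus strand for Ndufb1 and chr19:4012756-4013005 on the minus strand for Ndufv1. Capitals mark a match to one of the motifs searched, that of Sp1 in Ndufa3 and that of NRF-1 in Ndufs5.
Ndufa3: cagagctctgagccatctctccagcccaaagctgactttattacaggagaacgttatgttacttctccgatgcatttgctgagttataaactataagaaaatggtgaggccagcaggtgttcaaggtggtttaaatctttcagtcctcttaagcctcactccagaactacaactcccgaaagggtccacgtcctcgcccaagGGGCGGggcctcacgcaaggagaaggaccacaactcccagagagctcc
Ndufs5: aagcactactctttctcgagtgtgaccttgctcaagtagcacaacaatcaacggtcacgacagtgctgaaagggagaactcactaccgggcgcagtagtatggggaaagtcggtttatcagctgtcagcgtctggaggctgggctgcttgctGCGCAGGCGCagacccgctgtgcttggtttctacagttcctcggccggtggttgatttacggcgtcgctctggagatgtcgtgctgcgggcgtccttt
Ndufb1: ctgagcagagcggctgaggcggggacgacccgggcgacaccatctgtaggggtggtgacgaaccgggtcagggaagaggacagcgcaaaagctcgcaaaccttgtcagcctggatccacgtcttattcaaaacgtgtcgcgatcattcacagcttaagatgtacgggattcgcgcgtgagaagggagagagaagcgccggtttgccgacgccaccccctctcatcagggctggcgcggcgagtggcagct
Ndufv1: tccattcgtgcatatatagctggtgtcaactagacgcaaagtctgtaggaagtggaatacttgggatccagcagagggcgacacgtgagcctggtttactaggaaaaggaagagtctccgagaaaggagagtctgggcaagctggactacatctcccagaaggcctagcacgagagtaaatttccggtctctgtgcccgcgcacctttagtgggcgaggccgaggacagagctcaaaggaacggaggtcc

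The motifs searched on both strands were the palindromic consensus of nuclear respiratory factor 1 (NRF-1, a known activator of respiratory chain genes), CCGGAAG (ETS factors such as GABP), AAGATGGCG (YY1), GGGCGG (Sp1) and CCAAT. RefSeq entries were matched for 35 of the 40 subunit genes, with 37 windows. The NRF-1 motif was in 7 of the 37 windows (18.9%), against 3.74% of all 32851 windows of the same length. Its 6 genes were Ndufa11, Ndufa5, Ndufa8, Ndufb4, Ndufs5 and Ndufs6. The Sp1 motif was in 37.8% of the subunit windows and 32.7% of all windows, the ETS motif in 8.11% and 6.91%, CCAAT in 27.0% and 33.8%, and the YY1 motif in 0 and 0.606%. The 4 printed windows differ: the Sp1 match of Ndufa3 began 48 bases before the start, the NRF-1 match of Ndufs5 began 98 bases before it, and no searched motif was in the windows of Ndufb1 and Ndufv1. A match describes letters and is not evidence of binding.

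Complex I transcripts were a minor share of the RNA in both classes. The 40 genes summed to 7959 CPM (0.796% of UMIs) in wild-type deep barcodes and 7078 CPM (0.708%) in humanized ones. In T barcodes they summed to 7086 CPM (1314 UMIs) for wild-type and 5580 CPM (1562 UMIs) for the humanized library. Per barcode, the median share was 0.787% and 0.700% in wild-type and humanized deep barcodes, and 0.690% and 0.543% in T barcodes. The distributions of T barcodes were wider than those of deep barcodes, at far fewer UMIs per barcode. No barcode in either class lacked a complex I UMI. After each barcode was thinned to 1000 UMIs, a deep barcode showed a median of 7 subunit genes for wild-type and 6 for the humanized library, and a T barcode 6 and 4. With 1 library per genotype no test was possible and no difference between genotypes has a replicate check. All intervals here are 95% intervals for counting error only, and genotype cannot be told apart from mouse, tumour or library.

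**Figure D1:**
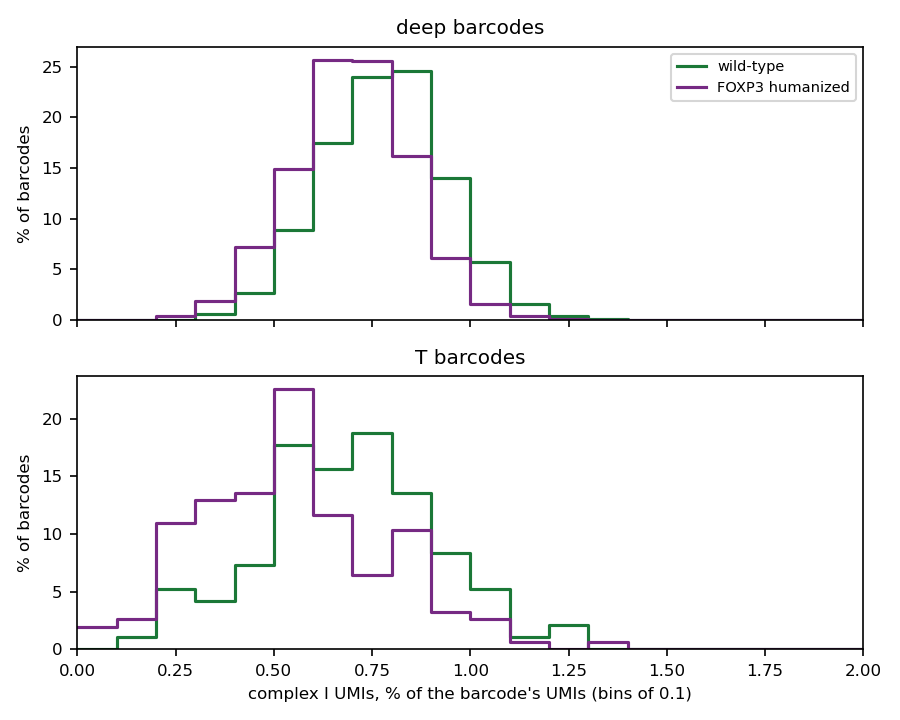
Complex I UMIs as a percent of each barcode's UMIs (x axis, bins of 0.1) against the percent of barcodes in the class (y axis), for 6705 wild-type and 9671 humanized deep barcodes (top) and 96 and 155 T barcodes (bottom). The humanized curves lie to the left of the wild-type curves in both classes, with medians of 0.700% against 0.787% and 0.543% against 0.690%.

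Subunits differed widely in level. Per kilobase of median coding transcript in GENCODE M21 (38 genes with a length), Ndufa6, an accessory subunit of the LYR family in the peripheral arm, stood highest in wild-type deep barcodes at 1487 CPM per kb. Ndufa7, another accessory subunit of that arm, followed at 1100 CPM per kb. Ndufs1, the largest nuclear core subunit, which carries iron-sulphur clusters, was at 48.2 CPM per kb. The same 3 genes stood at 1180, 1053 and 43.1 CPM per kb in the humanized library. Ndufa6 also led in T barcodes, at 1031 and 757 CPM per kb, and Ndufa3 stood at 685 and 536 there, behind Ndufa4 and Ndufa2. By CPM alone, Ndufa7 stood above Ndufa6, at 581 against 568 CPM in wild-type and 556 against 451 CPM in humanized deep barcodes. The order per kb thus rests on the lengths used. These were medians of 382 bases over 3 transcripts for Ndufa6 and 651 bases over 7 transcripts for Ndufs1. Whether UMI counts scale with transcript length on this platform is not given in the sources used here.

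**Figure D2:**
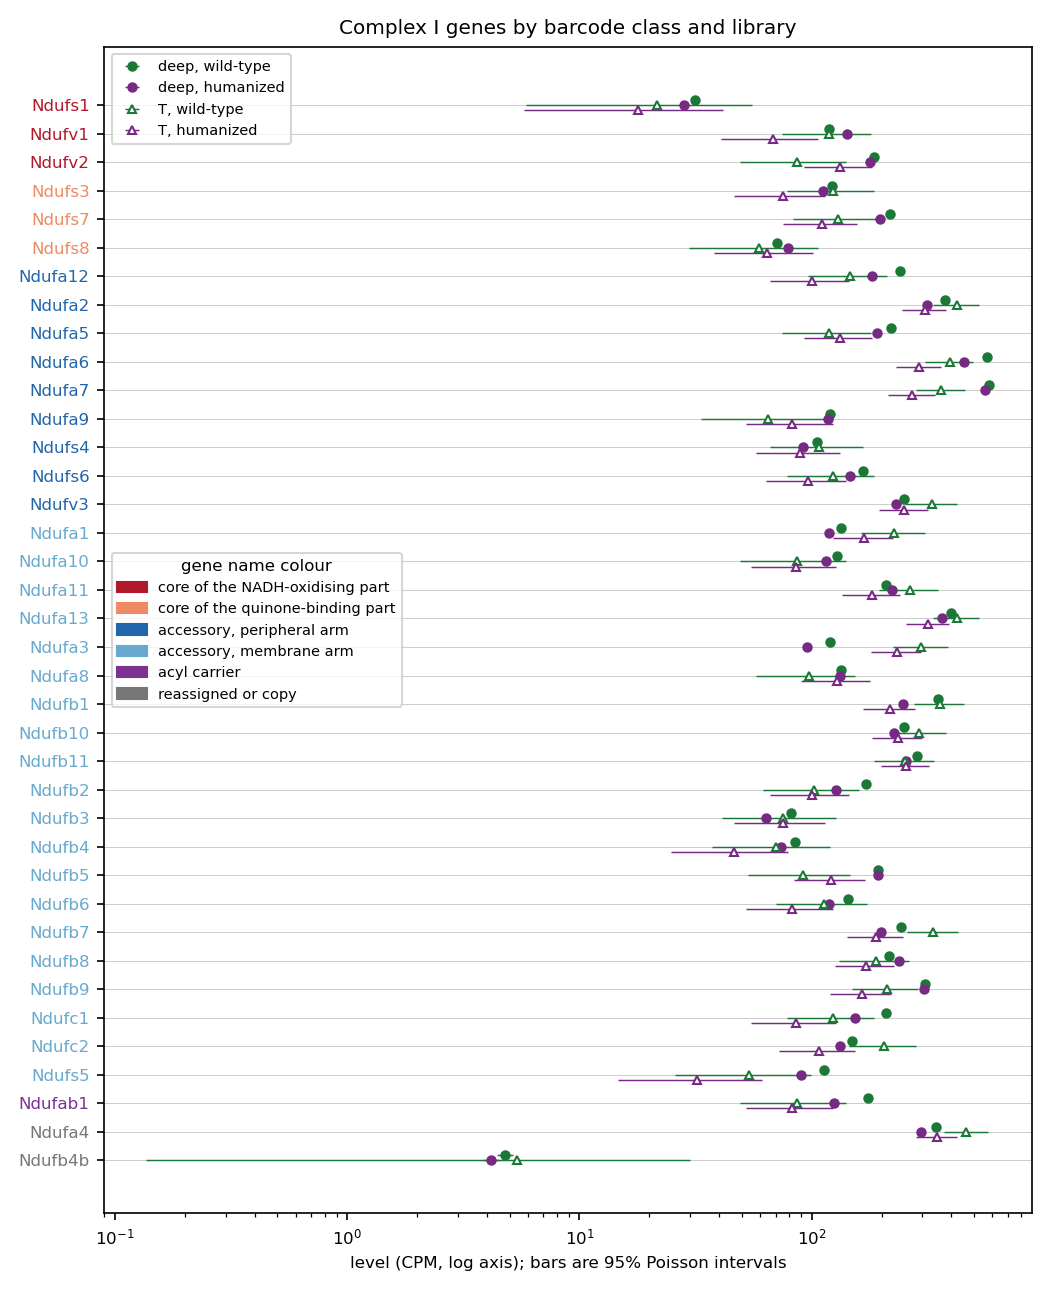
Level of each subunit gene (CPM, log axis) in deep barcodes (filled circles) and T barcodes (open triangles) of the wild-type (green) and humanized (purple) library, with 95% Poisson intervals and gene names coloured by place in the complex. Ndufa4l2 is not drawn and Ndufb4b, at 0 in humanized T barcodes, has no triangle there. Ndufa3 is the row where both T triangles lie to the right of both deep circles without touching intervals.

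In T relative to deep barcodes, one accessory subunit was at least 2-fold higher in both libraries, while most subunits were less than 2-fold apart. Ndufa3, a small accessory subunit of the membrane arm, was at 120 CPM in wild-type and 95.6 CPM in humanized deep barcodes. In T barcodes Ndufa3 was at 297 CPM (55 UMIs) and 232 CPM (65 UMIs). Its log2 ratio of T over deep was 1.31 (0.90 to 1.69) for wild-type and 1.28 (0.91 to 1.63) for humanized, so the T intervals lay above the deep level in each library. Thinned to 1000 UMIs, 22.9% (exact binomial interval 15.0 to 32.6%) of wild-type and 20.0% (14.0 to 27.2%) of humanized T barcodes had an Ndufa3 UMI, against 10.98% and 8.50% of deep barcodes. Ndufa3 shares exon bases with Tfpt on the opposite strand, and whether counting used strand is not given in the sources used here. Tfpt itself was at 20.8 and 19.1 CPM in wild-type and humanized deep barcodes and had 6 UMIs in the T barcodes of each library.

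A gene was counted as higher or lower in T barcodes when its levels were 2-fold or more apart and the interval of the log2 ratio left out 0, among genes with at least 20 UMIs and 5 expected T UMIs. Of 38 subunit genes measured, 5 were lower and 1 was higher in the wild-type library, against 22.2% and 10.2% of all genes. In the humanized library 4 were lower and 1 was higher, against 21% and 11.7% of all genes. Both shares of lower and of higher subunits were thus under those of all genes. Ndufa3 was the gene counted as higher in both libraries, and Ndufs5 was among those lower in both. Relative to the median gene, 0 were lower and 2 higher in the wild-type library (11.7% and 17.5% of all genes), and 1 lower and 1 higher in the humanized one (12.5% and 17.4%).

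Ndufs5, an accessory subunit on the intermembrane-space face of the membrane arm, was at 113 and 90.3 CPM in deep barcodes and at 53.9 CPM (10 UMIs) and 32.1 CPM (9 UMIs) in T barcodes. Its log2 ratio was -1.07 (-2.13 to -0.19) and -1.49 (-2.62 to -0.56), so Ndufs5 was lower in T barcodes of both libraries, from few UMIs.

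Other subunits passed in 1 library. Ndufv2, a core subunit with an iron-sulphur cluster, was at 185 CPM in deep and 86.3 CPM (16 UMIs) in T barcodes of the wild-type library, with a log2 ratio of -1.10 (-1.91 to -0.40). In the humanized library Ndufv2 was at 177 and 132 CPM, -0.43 (-0.93 to 0.038). Ndufv1, the core subunit that binds NADH and the flavin, was at 119 CPM in both classes of the wild-type library. In the humanized library Ndufv1 was at 141 CPM in deep and 67.9 CPM (19 UMIs) in T barcodes, -1.06 (-1.79 to -0.41). Each of these genes was thus counted as lower in 1 library and not in the other. Ndufv3, an accessory subunit beside them, was at 0.39 (0.0050 to 0.75) and 0.11 (-0.25 to 0.45). Ndufb5 (-1.08) and the acyl carrier Ndufab1 (-1.02) were lower in the wild-type library, with -0.67 and -0.60 in the humanized one. Ndufa7 was lower in the humanized library (-1.03), with -0.68 in the wild-type one.

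Across the 38 genes the 2 libraries gave alike patterns. The T over deep ratio had the same sign in 29 of 38, and Pearson's r between libraries was 0.78 and Spearman's rho 0.72, over genes, which are not independent and share transcript length and free RNA. Intervals lay above 0 in both libraries for Ndufa3 and for Ndufa1, an X-linked accessory subunit of the membrane arm. Ndufa1 was at 134 and 119 CPM in deep barcodes and at 227 CPM (42 UMIs) and 168 CPM (47 UMIs) in T barcodes, log2 ratios of 0.76 (0.28 to 1.19) and 0.49 (0.049 to 0.91). Intervals lay below 0 in both libraries for 11 genes, among them Ndufa12, Ndufa5, Ndufa6, Ndufa7, Ndufab1, Ndufb5, Ndufb9, Ndufc1, Ndufs5 and Ndufs7. The median of all genes was also below 0, at -0.39 for wild-type and -0.32 for humanized. Shared signs, shared intervals and correlations were not computed over all genes, so these values cannot be read as a trait of complex I.

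**Figure D3:**
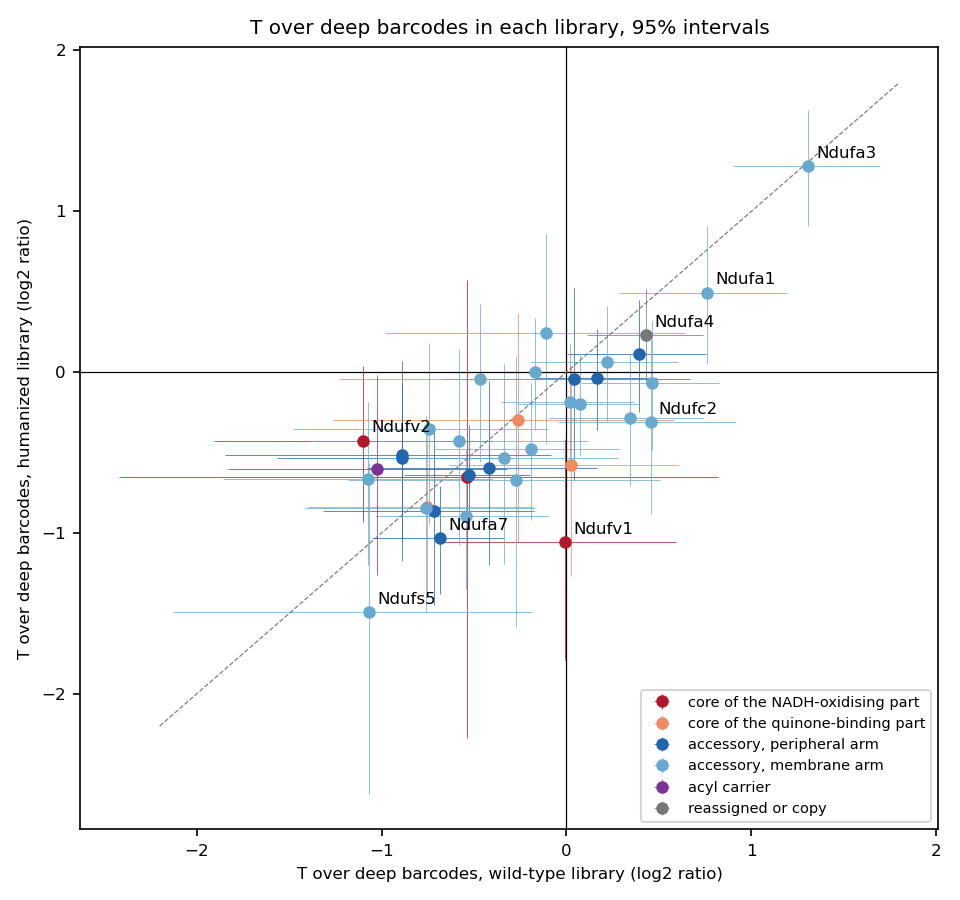
Log2 ratio of T over deep barcodes in the wild-type (x axis) and the humanized library (y axis) for 37 of the 38 subunit genes measured, with 95% intervals for counting error and a dashed line of equal ratios. Ndufa3 stands alone at the upper right at 1.31 and 1.28, and Ndufs5 lies at the lower left.

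By place in the complex, the log2 ratio of summed UMIs in T over deep barcodes was given for 3 groups. The core of the NADH-oxidising part (Ndufv1, Ndufv2, Ndufs1) was at -0.57 (-1.04 to -0.13) for wild-type and -0.67 (-1.06 to -0.31) for the humanized library. The 9 accessory genes of the peripheral arm were at -0.35 (-0.49 to -0.20) and -0.50 (-0.63 to -0.36), and the 20 of the membrane arm at -0.023 (-0.13 to 0.082) and -0.21 (-0.31 to -0.11). The median gene of the whole table stood at -0.39 in the wild-type (4168 genes) and -0.32 in the humanized library (5121 genes), so the intervals of the NADH-oxidising core included the median gene in both libraries and those of the membrane arm lay above it. In each library 1 of the 3 genes of that core was counted as lower. Over the whole complex the ratio was -0.17 (-0.25 to -0.090) and -0.34 (-0.42 to -0.27), which relative to the median gene became 0.22 in the wild-type library, a change of sign, and -0.023 in the humanized one. Of the 38 subunits, 25 lay below 0 for wild-type and 32 for the humanized library, with medians of -0.30 and -0.45.

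The other parts of the respiratory chain were set beside these values. Mitochondrially encoded complex I subunits (7 genes) were at 323 CPM in deep and 453 CPM (84 UMIs) in T barcodes of the wild-type library, and at 245 and 357 CPM (100 UMIs) in the humanized library. Their log2 ratios were 0.49 (0.16 to 0.80) and 0.55 (0.25 to 0.83), opposite in sign to the core of the NADH-oxidising part in both libraries. Of the 3 measured genes, 2 lay above 0 and mt-Nd2 below it in each library, and none was counted as higher or lower. All 13 mitochondrially encoded genes together were at 0.35 (0.22 to 0.48) and 0.23 (0.11 to 0.36), so the sign was not particular to complex I subunits. The 16 assembly factors, which build the complex and are not part of it, were at -0.84 (-1.30 to -0.42) and -0.34 (-0.68 to -0.026). Of these, 2 of 4 measured were lower in the wild-type library and 2 of 8 in the humanized one, against 22.2% and 21% of all genes. Ndufaf2 was lower in both at -2.42 and -1.67 from 2 and 4 T UMIs. Complex II was at -0.23 and -0.30, complex III at -0.22 and -0.12, complex IV at -0.056 and -0.19 and ATP synthase at -0.025 and -0.16. Ribosomal protein genes, a large share of all UMIs, were at -0.38 and -0.26.

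**Figure D4:**
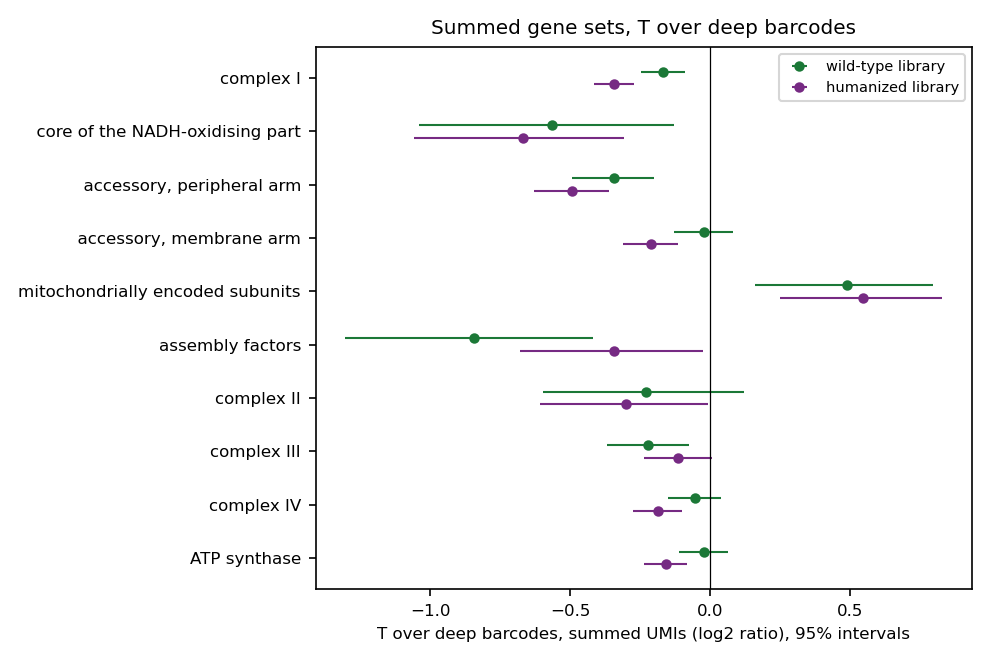
Log2 ratio of summed UMIs in T over deep barcodes (x axis) with 95% intervals for complex I, 3 of its subunit groups, its mitochondrially encoded subunits, its assembly factors and the other respiratory complexes, in the wild-type (green) and humanized (purple) library. The core of the NADH-oxidising part lies left of 0 and the mitochondrially encoded subunits lie right of it in both libraries. All 13 mitochondrially encoded genes together, not drawn, were also above 0, at 0.35 and 0.23. Complex I as a whole, at -0.17 and -0.34, changes sign in the wild-type library to 0.22 when set against the median gene.

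In deep barcodes, the summed complex I genes were lower in the humanized library by CPM. The log2 ratio of humanized over wild-type was -0.17 (-0.173 to -0.165), but the median of 13728 genes was -0.21 (quartiles -0.40 and -0.050), and relative to that median the sum was 0.041, a change of sign. A gene was counted as lower or higher here when its log2 ratio was 0.32 or more from 0 on either side and the interval left out 0, among genes with at least 100 UMIs. Of 39 subunits measured, 9 were lower, against 32.3% of all genes, and 0 were higher, against 1.8%. Relative to the median gene, 0 were lower (13.9% of all genes) and 4 were higher (8.23%). The subunits as a group thus lay close to the whole table. The median subunit was at -0.17, and 26 of 39 lay above the median gene.

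Among the subunits, the lowest ratios belonged to accessory subunits and the highest to the core subunit Ndufv1. Ndufb1, an accessory subunit of the membrane arm, was at 351 CPM in wild-type and 248 CPM in humanized deep barcodes, a log2 ratio of -0.50 (-0.52 to -0.48). Ndufab1, the mitochondrial acyl carrier that also serves fatty acid synthesis, was at 175 and 125 CPM, -0.49 (-0.52 to -0.46). The other subunits counted as lower were Ndufc1 (-0.45), Ndufb2 (-0.43), Ndufa12 (-0.40), Ndufb3 (-0.36), Ndufa6 (-0.33), Ndufa3 (-0.33) and Ndufs5 (-0.32), none of them core. Ndufv1 was at 119 CPM in wild-type and 141 CPM in humanized deep barcodes, 0.25 (0.22 to 0.28). The core subunit Ndufs8 (0.15) and the accessory subunit Ndufb8 (0.14) were, with Ndufv1, among the 4 counted as higher relative to the median gene.

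By group in deep barcodes, humanized over wild-type, the core of the NADH-oxidising part was at 0.048 (0.029 to 0.067). Of its 3 genes only Ndufv1 lay above 0, at 0.25, while Ndufv2 was at -0.060 and Ndufs1 at -0.16. The value of this group thus rests on Ndufv1. The accessory genes of the peripheral arm were at -0.20 (-0.21 to -0.20) and those of the membrane arm at -0.18 (-0.18 to -0.17). Both lay close to the median gene, at -0.21. Mitochondrially encoded subunits were at -0.40 (-0.42 to -0.38), with mt-Nd1 (-0.48), mt-Nd2 (-0.93) and mt-Nd5 (-0.72) counted as lower of 6 measured. Assembly factors were at -0.25 (6 of 16 lower), complex II at -0.013, complex III at -0.18, complex IV at -0.21 and ATP synthase at -0.10. The 9 regulators of mitochondrial genes on the list, such as Ppargc1a, Esrra and Nrf1, summed to -0.24, with 1 of 8 measured lower. Beside these counts, 32.3% of all genes were counted as lower in deep barcodes.

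**Figure D5:**
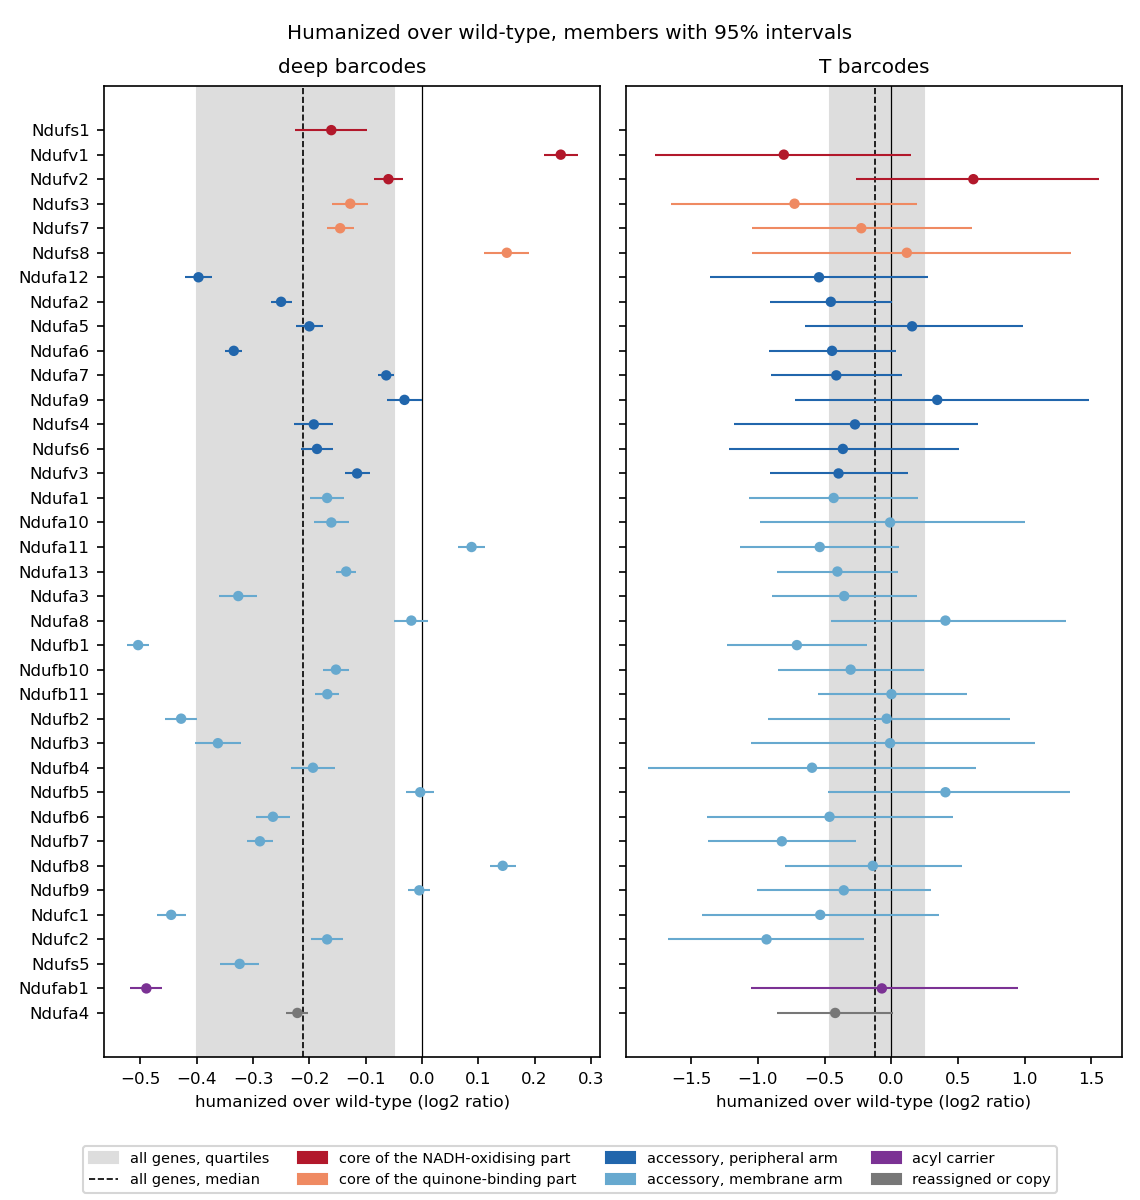
Log2 ratio of humanized over wild-type for the subunits measured in deep barcodes (left, 37 drawn) and T barcodes (right), with 95% intervals, the median (dashed) and quartiles (grey) of all genes. In deep barcodes Ndufv1, Ndufs8 and Ndufb8 lie farthest to the right and Ndufb1 and Ndufab1 farthest to the left, and most subunits that lie below 0 are near the median gene at -0.21, so that 26 of 39 lie above it.

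Depth differed between the libraries and moved with the level of complex I. In quartiles of UMIs within wild-type deep barcodes the sum was 7556, 7656, 7944 and 8189 CPM, from the shallowest to the deepest. In humanized deep barcodes it was 6771, 6857, 7044 and 7267 CPM. The humanized value lay below the lowest wild-type quartile in each quartile. In deep barcodes of 10000 to 20000 UMIs, a range chosen after seeing the data, the log2 ratio was -0.14. Within 1000 UMIs above and below the depth limit of 5000, barcodes without CD3 or Ptprc were at 7409 and 7535 CPM for wild-type and 6713 and 6721 CPM for the humanized library.

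In T barcodes, the summed complex I genes were lower by CPM in the humanized library, and remained lower relative to the median gene. The log2 ratio of the sum was -0.34 (-0.45 to -0.24), while the median of 3388 genes was -0.12, and relative to that median it was -0.22. Genes were counted here at 1.5-fold, with at least 20 UMIs and an interval that left out 0. Of 36 subunits measured, 3 were lower, against 5.87% of all genes, and 0 were higher, against 2.54%. Relative to the median gene the counts were again 3 and 0, against 3.93% and 4.13% of all genes. The median subunit was at -0.36, and 28 of 36 lay below 0.

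The 3 genes counted as lower in humanized T barcodes were accessory subunits of the membrane arm, a group that held 19 of the 36 subunits measured. Ndufc2 was at 205 CPM (38 UMIs) in wild-type and 107 CPM (30 UMIs) in humanized T barcodes, -0.94 (-1.68 to -0.21). Ndufb7, which faces the intermembrane space, was at 334 CPM (62 UMIs) and 189 CPM (53 UMIs), -0.82 (-1.38 to -0.27). Ndufb1 was at 356 CPM (66 UMIs) and 218 CPM (61 UMIs), -0.71 (-1.23 to -0.18), and was the gene counted as lower in both classes. At the other end, Ndufv2 was at 86.3 CPM (16 UMIs) and 132 CPM (37 UMIs), with an interval that included 0 (-0.27 to 1.56). Ndufv1, at 119 CPM (22 UMIs) and 67.9 CPM (19 UMIs), and Ndufs3, at 124 CPM (23 UMIs) and 75.01 CPM (21 UMIs), had intervals from -1.77 to 0.15 and from -1.65 to 0.19.

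Other values moved with the genotype in T barcodes. Ribosomal protein genes took 25.3% of wild-type and 29.3% of humanized T UMIs, a log2 ratio of 0.21. Complex IV was at -0.34 (-0.47 to -0.21), ATP synthase at -0.23 (-0.35 to -0.12), complex III at -0.070 (-0.26 to 0.12) and mitochondrially encoded complex I subunits at -0.34 (-0.78 to 0.093). All 13 mitochondrially encoded genes together were at 2680 CPM in wild-type and 1865 CPM in humanized T barcodes, -0.52 (-0.70 to -0.34). Of 7 measured, 3 were lower, against 5.87% of all genes. In deep barcodes the 13 genes were at -0.41 (-0.41 to -0.40). The level of the 5 tumour-side genes in T barcodes was 16.3% of the deep level for wild-type and 21.3% for the humanized library. Over all 15 tumour-side genes the order was reversed, at 37.6% for wild-type and 29.5% for the humanized library. The part of these in the result was not tested. The change from deep to T barcodes differed between libraries by -0.18 (-0.28 to -0.070) on the log2 scale for the sum. Of 38 genes, 4 had such a difference with an interval excluding 0, unadjusted: Ndufv1 at -1.05 (-1.94 to -0.17), Ndufc2 at -0.77, Ndufa11 at -0.62 and Ndufb7 at -0.53. The share of all genes with such a difference was not counted, so the number cannot be read as a trait of complex I.

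T barcodes with Treg markers had at least 1 Foxp3 UMI, or at least 2 UMIs summed over Il2ra, Ikzf2, Tnfrsf18 and Tnfrsf4. They were compared with the other T barcodes, and the intervals of the complex I ratio included 0 in both libraries. In the wild-type library 50 Treg-marked barcodes were at 7211 CPM and the other 46 at 6963 CPM, 0.051 (-0.11 to 0.21). In the humanized library 58 were at 5847 CPM and the other 97 at 5400 CPM, 0.11 (-0.033 to 0.26). Both intervals thus allow a difference of either sign. Humanized over wild-type was -0.30 (-0.46 to -0.14) in Treg-marked and -0.37 (-0.51 to -0.22) in other T barcodes.

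Single subunit genes were hardly correlated from barcode to barcode, while their sum followed the rest of the respiratory chain. In deep barcodes thinned to 5000 UMIs, Pearson's r between pairs of 38 subunits had a median of 0.024 over 6705 wild-type and 0.022 over 9671 humanized barcodes, and at most 0.098 and 0.092. At about 39.2 and 34.9 UMIs per barcode for the whole complex, single genes have few UMIs, and such weak values are no finding. The summed UMIs had a variance 2.23 and 2.12 times their mean, above the value of 1 for counting alone. The sum went with complexes II to V (r of 0.51 and 0.53), hardly with mitochondrially encoded subunits (0.043 and 0.032) and inversely with ribosomal protein genes (-0.19 and -0.24), over barcodes of 1 library that share a fixed total. Over depth quartiles, mitochondrially encoded subunits rose from 286 to 336 CPM for wild-type and from 205 to 264 CPM for humanized barcodes. Complexes II to V stood at 13179 to 14053 and 11944 to 12665 CPM. Counting error weighs more on the former, so these values of r cannot be compared. Ndufa4 had the highest variance over mean of a single gene, 1.39 and 1.34, followed by Ndufa6 at 1.29 and 1.23.

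Of the genes caught by the symbol rule, 3 stand outside the complex or copy one of its genes. Ndufa4, since reassigned to complex IV, was at 344 and 295 CPM in deep barcodes and 464 CPM (86 UMIs) and 346 CPM (97 UMIs) in T barcodes, T over deep ratios of 0.43 (0.11 to 0.74) and 0.23 (-0.071 to 0.52). Ndufa4l2, its hypoxia-inducible paralog, had 16 UMIs in the deep barcodes of each library (0.124 and 0.114 CPM). It had 0 UMIs in T barcodes, which allows up to 16.2 CPM for wild-type and 10.7 CPM for the humanized library at 3 counts. Ndufb4b, a near copy of Ndufb4, had 619 and 585 UMIs in deep barcodes and 1 and 0 in T barcodes, and both it and Ndufb4 are uncertain because reads could be split between them. Without these 3 genes the sum was 7610 and 6778 CPM in deep barcodes, -0.17 (-0.171 to -0.163), with the same 9 subunits lower. In GENCODE M21, 18 subunit genes share exon bases with another gene, and their counts carry the same uncertainty as that of Ndufa3.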

How the data were processed

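Raw UMI counts per gene and barcode were deposited by the authors, written by PISA 1.0 per the file headers, and the submitters' processing notes name the build GRCm39. The aligner, annotation, strand setting and cell calling were not stated in the labels or headers. Total counts were 134214718 UMIs over 7691 barcodes in the wild-type and 147738781 over 11087 in the humanized library. The subunit genes and all lists were chosen with earlier results of these data known.

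UMIs were summed per barcode class and library with Python 3.11.15, numpy 2.4.6, scipy 1.17.1 and pandas 2.3.3. Levels are CPM with exact Poisson intervals, shares have exact Clopper-Pearson intervals, and log2 ratios have exact conditional intervals, all at 95%. No doublets were removed, and no barcode was filtered beyond the class rules. Named genes were the 7 nuclear core subunits (1 of them, and the group it belongs to, is not reported here), Ndufab1, Ndufa4, Ndufa4l2 and the 5 highest and 5 lowest subunits of each of the 4 comparisons. Other genes are named as members of a count, after their values were seen. Promoter windows come from RefSeq GRCm38.p6, transcript lengths and exon overlaps from GENCODE M21 on GRCm38, with no coordinates transferred to GRCm39. Alternatives changed the scaling, depth limits, CD3 minimum, mitochondrial limit, UMI minimum, thinning and free RNA.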

Additional observations from a re-analysis of the deposited data

Results flagged for a closer look

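Some subunits stood on opposite sides of 0 in 2 groups under the same contrast, with an interval of the difference that excluded 0, and with 1 library per genotype the differences were not tested. In each pair at least 1 of the values had an interval that included 0. Humanized over wild-type, Ndufv1 was at 0.25 (0.22 to 0.28) in deep and -0.81 (-1.77 to 0.15) in T barcodes on the log2 scale. Ndufa11, an accessory subunit of the membrane arm, was at 0.088 (0.064 to 0.11) in deep and -0.54 (-1.13 to 0.059) in T barcodes. For T over deep barcodes, Ndufa11 was at 0.34 (-0.094 to 0.74) for wild-type and -0.28 (-0.71 to 0.11) for the humanized library, and each value kept its sign in 9 of 10 alternatives. The 2 pairs of Ndufa11 values express the same difference and are not separate results. Ndufb7 was at 0.46 (0.080 to 0.82) for wild-type and -0.069 (-0.49 to 0.32) for the humanized library. The humanized value of Ndufb7 kept its sign in 7 of 10 alternatives and ran from -0.19 to 0.25. Ndufc2 was at 0.45 (-0.045 to 0.91) for wild-type and -0.31 (-0.88 to 0.20) for the humanized library, where it kept its sign in 9 of 10 alternatives. In each library the mitochondrial limit and both free RNA settings kept the sign of all 28 genes checked for T over deep. These settings add nothing to the counts of alternatives, which are a weak check.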

How the results depend on the processing

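No paired analysis was possible because each genotype had 1 cDNA library, and leaving out a replicate was not possible for the same reason. Humanized over wild-type in deep barcodes, the summed log2 ratio was -0.13 with mitochondrially encoded and ribosomal protein genes left out of the total (5 subunits lower), -0.16 from 10000 UMIs, -0.16 when thinned to 1000 UMIs, -0.14 at 10000 to 20000 UMIs (5 lower) and 0.041 relative to the median gene (0 lower, 4 higher). In T barcodes it was -0.22 relative to the median gene. T over deep barcodes in the wild-type library was -0.32 without mitochondrially encoded and ribosomal protein genes, -0.26 with T barcodes under 2500 UMIs (2 lower), -0.28 with free RNA estimated from all tumour-side genes taken off and 0.22 relative to the median gene (0 lower, 2 higher). In the humanized library the same settings, except the T depth limit, gave -0.46, -0.51 and -0.023 (1 lower), and taking off free RNA estimated from 5 tumour-side genes gave -0.45. Among these alternatives, shares of all genes are given above for the median-gene setting only. The counts of lower subunits in the other settings thus cannot be read as a trait of complex I. The causes were not tested. The range of 10000 to 20000 UMIs, the 5-gene estimate, the median-gene scaling of T over deep and leaving out the T barcode with the most complex I UMIs were chosen after seeing the data. Ndufa3 in T over deep barcodes ran from 1.14 to 1.75 in the wild-type and from 1.16 to 1.60 in the humanized library over 10 alternatives. Ndufs5 ran from -2.62 to -0.68 and from -3.53 to -1.17. Free RNA and means over barcodes gave no counts of genes. Depth limits the T values, and Ndufs5 rests on 10 and 9 T UMIs in the wild-type and humanized library.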
